A study of Mus musculus with 5 samples.

Results

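Single CpGs on distal chromosome 4 carried the largest listed gains in measured methylation level in common myeloid progenitors of G5 mice. These levels are shares of sequencing reads, and whether the pools carry the same bases at these CpGs was not tested. The group described here is every listed position between 150 and 156 Mb of chromosome 4 (mm10) that the authors assigned to 1 of 9 genes, Errfi1, Vamp3, Plekhg5, Tnfrsf25, Nphp4, BC039966, Megf6, Arhgef16 and Acap3. It holds 26 of the 4688 positions in the deposited tables, 20 of them higher and 6 lower in G5. The genes were chosen by the size of the methylation difference between G5 and G0 pools in these same tables, so the differences below are a description and carry no test. At 10 of the 26 positions the authors' gain was at least 40 percentage points, and at these the G5 pools stood at 75% to 100% and the G0 pools at 0% to 56.4%, with G0 pool 2 above G0 pools 1 and 3 at each. The other 16 positions of the same genes differed by 10.8 to 33.1 points in either direction. At these, G0 pool 2 was not above G0 pools 1 and 3 throughout, and over the 6 lower ones its mean was the nearest to the G5 pools.

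Methylation was measured by reduced representation bisulfite sequencing, which reads cytosines in CpG-rich fragments cut by a restriction enzyme, in common myeloid progenitors sorted from bone marrow by flow cytometry. These cells give rise to granulocytes, monocytes, red cells and platelets. There were 2 pools of G5 mice, genotype TERTER/ER, labelled as having short telomeres, and 3 pools of G0 mice, genotype TERTER/+, labelled as normal. All mice, G0 included, carry the TERT-ER allele, in which telomerase is joined to a hormone-binding part of the oestrogen receptor and works only with its ligand, and all have a strain background given as mainly C576BL/6. The labels give neither the number of mice in a pool nor their age, and the sort was not checked against marker genes because the tables hold methylation only. Each pool had 14000 to 30000 cells and 29 to 38 M reads. Read depth at a single CpG is unknown, so levels are given without counting intervals.

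Methylation of CpGs outside islands is usually high in mammalian cells, while CpG islands at active promoters are usually unmethylated. Bisulfite turns unmethylated cytosine into a base read as thymine and leaves methylated cytosine unchanged. A percent here is therefore the share of reads that still showed a cytosine at a CpG of the mm10 genome, and a thymine in the DNA itself reads like an unmethylated cytosine. The files hold no genotypes, and whether the pools carry the same bases at these CpGs was not tested.

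The reference sequences around the large-gain CpGs are given here, and they are not reads of the pools. Each is 62 bases of the plus strand of mm10, 5′ to 3′, centred on the CpG, and capitals mark every CpG of the window that the authors listed. The window of Acap3 overlaps an untranslated region and is not printed.
Errfi1, chr4:150878702-150878763: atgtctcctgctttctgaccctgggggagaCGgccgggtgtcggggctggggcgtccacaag
Vamp3, chr4:151086201-151086262: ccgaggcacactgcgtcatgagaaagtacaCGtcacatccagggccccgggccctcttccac
Plekhg5, chr4:152102160-152102221: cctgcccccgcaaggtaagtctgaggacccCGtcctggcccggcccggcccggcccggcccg
Tnfrsf25, chr4:152112083-152112144: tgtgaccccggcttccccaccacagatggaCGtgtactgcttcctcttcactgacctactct
Nphp4, chr4:152493418-152493479: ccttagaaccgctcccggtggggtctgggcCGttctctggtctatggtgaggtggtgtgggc
BC039966, chr4:153742450-153742511: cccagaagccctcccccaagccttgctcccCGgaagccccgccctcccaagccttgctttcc
BC039966, chr4:153819793-153819854: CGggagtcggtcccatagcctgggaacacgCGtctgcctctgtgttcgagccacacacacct
Megf6, chr4:154181072-154181133: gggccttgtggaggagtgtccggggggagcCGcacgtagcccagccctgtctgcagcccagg
Arhgef16, chr4:154323309-154323370: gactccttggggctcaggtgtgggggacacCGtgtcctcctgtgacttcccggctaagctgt

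The 9 windows hold 32 CpGs, of which 10 were listed, and 2 of the listed ones share the second BC039966 window. Each window holds 2 to 7 CpGs, and GC content runs from 56.5% to 80.6%. The recognition sequence of MspI, CCGG, the enzyme commonly used for such libraries, is in 8 of the 9. Within 50 bp of a large-gain CpG there was a median of 3 other CpGs, and a median of 0 of these was listed. A CpG missing from the tables either did not pass the authors' test or was not measured, and the files do not tell which.

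Among the genes of signalling receptors, Errfi1 encodes a feedback inhibitor of the epidermal growth factor receptor family. Its single listed position, 150878732, stood at 100% and 98.6% in G5 pools 1 and 2, against 3.51%, 35.6% and 0% in G0 pools 1, 2 and 3. It lies between genes, 23643 bp downstream of the Errfi1 start site. Tnfrsf25 encodes death receptor 3, a member of the tumour necrosis factor receptor family found on T cells. The position assigned to it, 152112112, stood at 96.4% in both G5 pools, against 0%, 52.3% and 0% in G0 pools 1, 2 and 3. At both positions G0 pools 1 and 3 were near 0 and G0 pool 2 lay between them and the G5 pools. The Tnfrsf25 position is 4231 bp upstream of the Tnfrsf25 start site and inside a coding exon of the neighbouring gene Plekhg5.

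The next genes act on small GTPases. Plekhg5, a guanine nucleotide exchange factor gene, had 1 position in an intron at 152102190, with 100% and 75% in G5 pools 1 and 2, against 0%, 33.3% and 0% in the 3 G0 pools. This was the lowest level of any G5 pool among the 10 large-gain positions. Arhgef16, another exchange factor gene, had its large gain at 154323339, with 100% and 98.7% in the G5 pools, against 0%, 44.4% and 1.27% in the 3 G0 pools. That position is 23445 bp upstream of the Arhgef16 start site, inside a coding exon of Prdm16, which encodes a zinc finger factor known from brown fat and blood stem cells. Acap3, which encodes a GTPase activator for Arf proteins, had 1 position in an untranslated exon part at 155906185, with 97.0% and 100% in the G5 pools, against 9.52%, 40.5% and 34.4% in the 3 G0 pools. Here G0 pool 3 stood near G0 pool 2 and not near G0 pool 1.

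Vamp3 encodes a SNARE protein of recycling endosomes. Its large gain at 151086231 stood at 97.1% and 92.6% in the G5 pools, against 1.09%, 43.0% and 0% in the 3 G0 pools. The position is 28279 bp upstream of the Vamp3 start site, in an intron of Camta1, a calmodulin-binding transcription activator gene, and GENCODE places all 6 positions assigned to Vamp3 in Camta1 introns. Nphp4 encodes nephrocystin 4 of the ciliary transition zone, whose human counterpart is mutated in nephronophthisis. Its intronic position 152493447 stood at 98.1% and 96.8% in the G5 pools, against 0.893%, 54.7% and 0% in the 3 G0 pools. Megf6 encodes a protein with many epidermal growth factor-like repeats. Its intronic position 154181101 stood at 97.6% and 100% in the G5 pools, against 0%, 48.5% and 1.39% in the 3 G0 pools. At Vamp3, Nphp4 and Megf6, as at Errfi1, G0 pool 2 alone was at a middle level and G0 pools 1 and 3 were near 0.

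BC039966, a transcript with a non-coding RefSeq identifier (NR_040670), had 2 large gains in intergenic sequence far from its start site. At 153819822, 130655 bp away, the level was 100% in both G5 pools, against 0%, 12.5% and 0% in the 3 G0 pools. The authors' gain of 96.5 points there was the largest in either table. At 153742480, 207997 bp away, it was 97.3% and 95.8% in the G5 pools, against 48.2%, 56.4% and 51.4% in the 3 G0 pools. This was the only large-gain position at which all 3 G0 pools stood at a middle level.

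**Figure D1:**
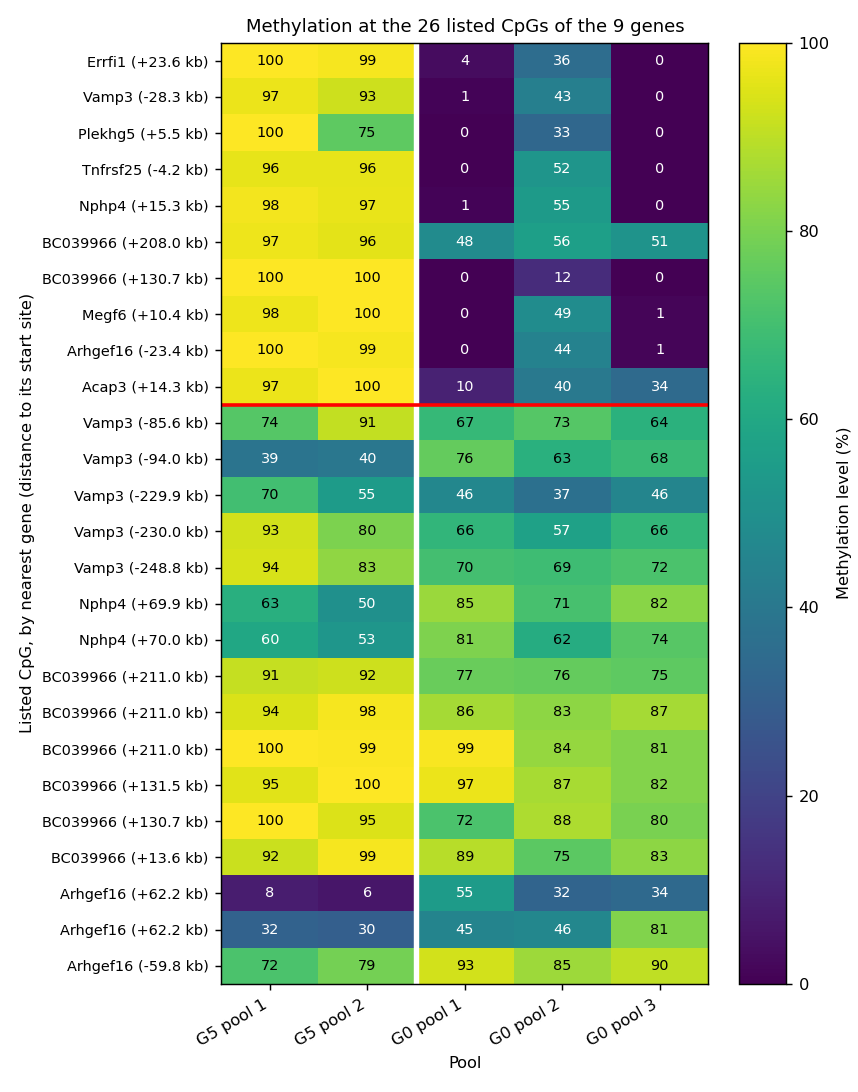
Methylation level in percent (colour and printed whole numbers) of each pool (columns, G5 pools left of the white line, G0 pools right) at the 26 listed CpGs (rows, named by nearest gene with the distance to its start site in kb). Above the red line are the 10 positions with a gain of at least 40 points, where G5 pools stand at 75% to 100% and G0 pool 2 stands above G0 pools 1 and 3 in every row. Below it are the other 16 positions, with smaller differences, where G0 pool 2 does not stand above G0 pools 1 and 3 in every row.

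To describe these steps, a level was called near 0 at 10% or less, middle from 35% to 65%, and near 100 at 90% or more. A position was called stepped when all 5 pools fell in these classes and not all in the same class. By that rule 7 of the 26 positions were stepped, all of them large gains, against 1.73% of all listed positions (81 of 4688). The 7 were those of Errfi1, Tnfrsf25, Nphp4, Megf6, the large gains of Vamp3 and Arhgef16, and BC039966 at 153742480. At the other 3 large gains, a pool fell outside a class, G5 pool 2 and G0 pool 2 in Plekhg5, G0 pool 2 at BC039966 153819822, and G0 pool 3 in Acap3. All 3 classes occurred within the same position at 6 of the 7, and at 8 positions in the whole series. With narrower classes (5%, 40% to 60%, 95%) 5 positions were stepped, and with wider ones (15%, 30% to 70%, 85%) 10 were, among them the lower Arhgef16 position 154237729. Of the 50 pool levels at the 10 large-gain positions, 92% fell in a class, against 47.5% of the 80 levels at the other 16 and 51.0% of all levels in the tables. The other 16 and most listed positions had smaller differences, so large gains elsewhere were a closer comparison, but not a matched one. Those outside the region had gains of 40.1 to 57.8 points, with a median of 44.8, against a median of 81.3 at the 10. They came from 8 genes, and 13 of the 17 lay in CpG islands and 9 in promoters, against 0 and 0 of the 10. Of the 17 large gains outside the region of these genes, 3 were stepped, and 63.5% of their 85 levels fell in a class.

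Pool by pool, the 10 large-gain positions averaged 98.4% and 95.4% in G5 pools 1 and 2, against 6.32%, 42.1% and 8.85% in G0 pools 1, 2 and 3. The group means were 96.9% ± 2.10 (SD, n = 2) in G5 and 19.1% ± 20.0 (SD, n = 3) in G0, a difference of 77.8 points. Within the G0 group, pool 2 was above pool 1 and above pool 3 at all 10 positions, by medians of 37.6 and 39.3 points. Without G0 pool 2 the mean difference was 89.3 points. Between G0 pools 1 and 3 the median absolute difference was 1.18 points, and between the G5 pools it was 1.47 points. The median range over the 3 G0 pools was 39.3 points at the large-gain positions, 13.5 points at the other 16 and 8.44 points over all listed positions. At large gains of the series outside the region it was 20.0 points, and the highest range there was 64.6 points.

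Low levels in G0 pools 1 and 3 recurred at positions far apart. The limits used here were set after the levels of the members were seen, so the counts are a description and test nothing. At 8 of the 26 positions G0 pools 1 and 3 were both at 10% or less and both G5 pools at 75% or more, which held for 0.382% of the 2618 higher positions of the series (10 of them). All 10 lay between 150 and 156 Mb of chromosome 4. The 2 that belong to other genes were assigned to the sugar transporter gene Slc2a7 and the potassium channel subunit gene Kcnab2, which are named here after their values were seen. The Slc2a7 position 150157765 stood at 86.8% and 92.9% in the G5 pools, against 0%, 39.8% and 0% in the 3 G0 pools. The Kcnab2 position 152414442 stood at 88.2% and 96.9% in the G5 pools, against 0%, 19.4% and 0% in the 3 G0 pools. The remaining large gain of the region outside the 9 genes was assigned to Tas1r3, a taste receptor subunit gene. Its position 155855966 stood at 94.5% and 96.5% in the G5 pools, against 1.41%, 50.6% and 58.2% in the 3 G0 pools. There, as at Acap3, the nearest large gain, G0 pool 1 was under 10% and G0 pools 2 and 3 both lay between it and the G5 pools. For Tas1r3 the other strand of the same CpG, 155855965, was also listed, at 95.7% and 91.2% in the G5 pools, against 6.06%, 80.2% and 85.4% in the 3 G0 pools. For none of the 26 member positions were both strands of the CpG listed.

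**Figure D2:**
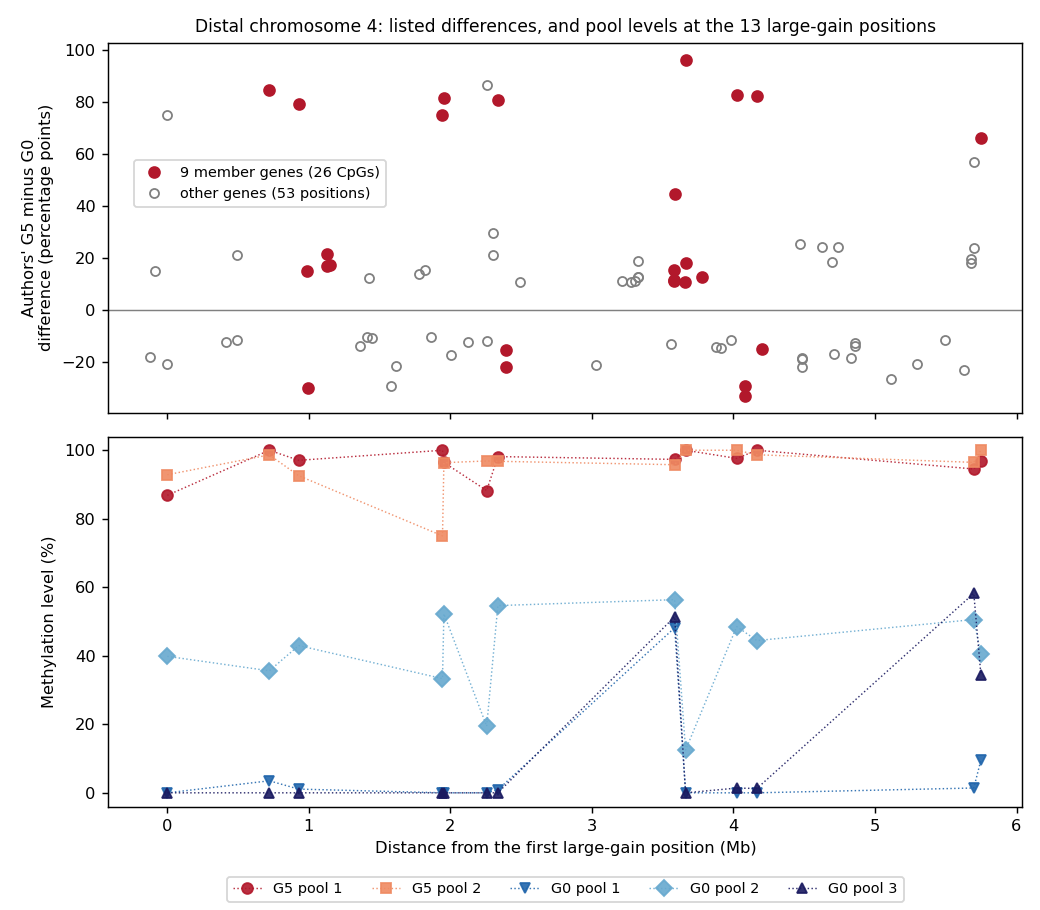
Upper panel, the authors' G5 minus G0 difference in percentage points at all 79 listed positions of the region against the distance in Mb from the first large gain, with the 26 member positions filled and 53 positions of other genes open. Lower panel, the level in percent of each pool at the 13 large gains, joined by dotted lines only to guide the eye: both G5 pools stay at 75% or more, G0 pool 1 is near 0 at all but 1, and G0 pool 3 is above 10% at 3 of the 13.

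Large gains were spread over 5748420 bp of the region, and neighbouring ones were at least 9922 bp apart. Of the 2618 higher positions of the series, 30 (1.15%) had a gain of at least 40 points, 13 of them in the region and 10 of them in the 9 genes. A gain of at least 60 points was listed at 11 positions (0.42%), of which 9 were in the 9 genes and the other 2 were those of Slc2a7 and Kcnab2. The largest gain elsewhere was 57.8 points, at Rn45s, the ribosomal RNA precursor gene. Just inside the limit of 40 points stood BC039966 153742480, at 44.8 points, and the next gain below it among the members was 21.5 points, at Vamp3 151287921. At the edges of the region, the last listed position before it, assigned to Spsb1, had a difference of -17.2 points, and the first past it, assigned to Noc2l, had 11.5 points.

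The other rows of the same genes showed smaller differences, at G0 levels that were higher on average, though not at every position. There were 16 such positions in 4 genes, 10 higher and 6 lower in G5, since Errfi1, Plekhg5, Tnfrsf25, Megf6 and Acap3 had no further row. The 10 higher ones averaged 90.3% and 89.3% in the G5 pools, against 77.0%, 73.0% and 73.5% in the 3 G0 pools. The group means were 89.8% ± 0.754 (SD, n = 2) in G5 and 74.5% ± 2.18 (SD, n = 3) in G0, a difference of 15.3 points. The 6 lower ones averaged 45.4% and 43.0% in the G5 pools, against 72.5%, 59.998% and 71.7% in the 3 G0 pools. Their group means were 44.2% ± 1.67 (SD, n = 2) in G5 and 68.1% ± 6.99 (SD, n = 3) in G0, a difference of -23.8 points. At these 16 positions G0 pool 2 was above G0 pool 1 at 3 and below it at 13, a count that mixes both directions. Over the 6 lower ones the mean of G0 pool 2 was nearer the G5 pools than those of G0 pools 1 and 3. In that respect they were like the 10 large gains, where G0 pool 2 was above G0 pool 1 at all 10. Over the 10 higher ones the mean of G0 pool 2 was the lowest of the 3 G0 pools.

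In Vamp3, the 4 other higher positions had gains of 15.01 to 21.5 points, and the highest, 151287921, stood at 93.0% and 80.3% in the G5 pools, against 65.7%, 57.3% and 66.3% in the 3 G0 pools. Vamp3 also had 1 lower position, 151151942, at 38.6% and 39.7% in the G5 pools, against 76.3%, 63.3% and 67.9% in the 3 G0 pools. Positions assigned to the same gene therefore went both ways, inside introns of Camta1. In Nphp4, the 2 lower positions lay 23 bp apart in an intron, 69948 and 69971 bp from the start site. They averaged 61.3% and 51.5% in the G5 pools, against 82.9%, 66.5% and 78.2% in the 3 G0 pools.

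The 6 other positions of BC039966 were all higher, by 10.8 to 18.0 points, at levels of 91.3% to 100% in the G5 pools, against 71.6% to 98.9% in the G0 pools. BC039966 gives the closest contrast of both patterns. The position 153819792, just 30 bp from the largest gain and in the printed window with it, stood at 100% and 94.7% in the G5 pools, against 71.6%, 87.8% and 80.0% in the 3 G0 pools. At the large gain itself G0 pools 1 and 3 were at 0%. In G0 pools 1 and 3, then, a CpG read as fully unmethylated lay beside one read as mostly methylated.

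In Arhgef16, the 3 other positions were all lower. At 154237729 the level was 7.89% and 5.88% in the G5 pools, against 54.8%, 32.1% and 34.1% in the 3 G0 pools. At 154237740, 11 bp further, it was 31.6% and 30.3% in the G5 pools, against 45.2%, 46.4% and 81.0% in the 3 G0 pools. The last, 154359684, stood at 71.8% and 79.2% in the G5 pools, against 93.0%, 85.2% and 90.5% in the 3 G0 pools. GENCODE places the first pair in a coding exon of Megf6, which the authors' flags call an intron, and 154359684 in an intron of Prdm16.

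**Figure D3:**
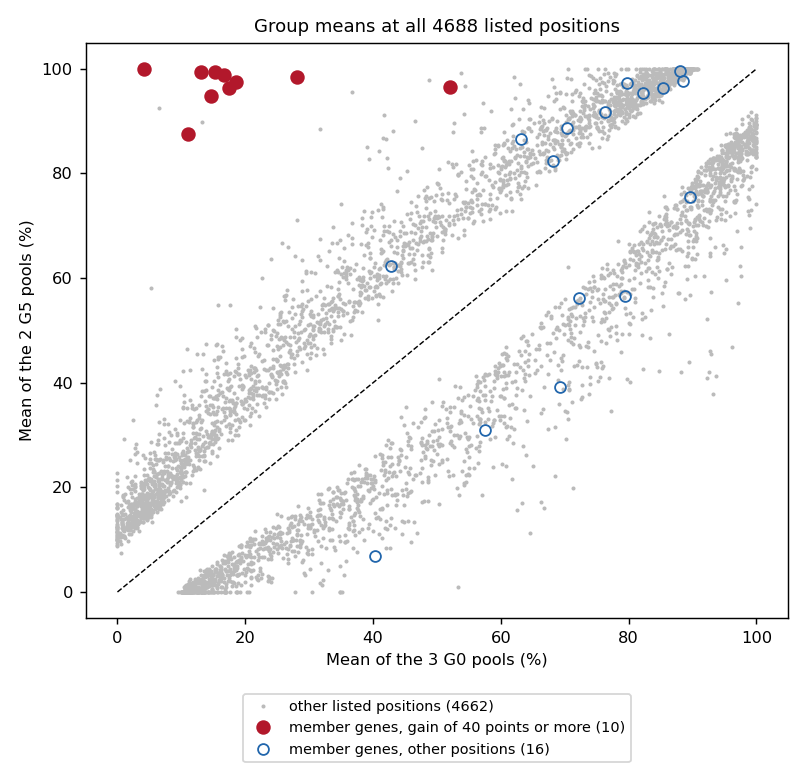
Mean level in percent of the 2 G5 pools against that of the 3 G0 pools at all 4688 listed positions, with the dashed line marking equal means. The 10 large gains of the 9 genes (filled) stand at G5 means of 87.5% to 100% and G0 means of 4.17% to 52.0%, while the other 16 positions (open) lie in the bands that hold most of the 4662 remaining positions (grey dots).

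The groups did not overlap at 19 of the 20 higher member positions, against 86.9% of all listed higher positions, and at 6 of the 6 lower ones, against 83.9% of all listed lower positions. These positions were listed for a difference in the same samples, so nothing is read from the counts. The gap between the groups was taken in the listed direction, from the highest G0 to the lowest G5 pool at higher positions and from the highest G5 to the lowest G0 pool at lower ones. It was 39.4 to 87.5 points at the 10 large gains and under 10 points at 10 of the other 16 positions, and at BC039966 153818930, where the groups overlapped, it was -1.91 points. The authors' deposited table gave a q-value of 0, as written there, at the 10 large gains and values up to 0.00768 at the others.

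None of the 26 positions lay in a promoter, a CpG island or an island shore by the authors' flags, so all 26 lay outside all 3, as did 47.5% of all listed positions. Of the large gains 3 were exonic, 4 intronic and 3 in neither, and of the other 16 positions 0 were exonic and 10 intronic. By GENCODE 6 of the 26 positions were inside the protein-coding gene they were named for, 11 were inside another one and 9 were in none. Among large gains these counts were 4, 3 and 3. The listed cytosine was on the plus strand at 5 of the 10 large gains and at 4 of the other 16 positions. The CpG was the centre of a CCGG site at 1 of the 10 large gains and at 8 of the other 16.

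For comparison, relatives of the member genes elsewhere in the genome were counted in 5 lists, of tumour necrosis factor receptors, Arf GTPase activators, SNAREs, transition zone genes and epidermal growth factor receptor signalling. Outside the 9 genes, 29 positions were assigned to 12 of the listed genes, and 0 of the 29 was a large gain or stepped. As only 1.15% of all listed higher positions were large gains and 1.73% of all listed positions were stepped, nothing is read from that 0. In the receptor list Tnfrsf11a, which encodes the receptor for the osteoclast factor RANKL, had the largest gain, 28.7 points. All 8 positions of that list outside Tnfrsf25 were higher, but they belong to only Tnfrsf11a and Tnfrsf21 of its 23 genes. The SNARE list had 4 higher and 9 lower positions, with a largest gain of 24.1 points at Stx6. The Arf list had 2 higher and 0 lower, the transition zone list 1 and 1, and the epidermal growth factor receptor list 1 and 3. Of all listed positions 2618 were higher and 2070 lower.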

How the data were processed

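The submitters' processing notes name Bowtie and Bismark 0.7.11 for alignment to mm10, and methylKit for the comparison. In the series' design text that comparison uses Fisher's exact test, promoters run 1 kb upstream and 500 bp downstream of a RefSeq start, and about 63% of reads aligned. No coverage minimum is stated. Per the file headers, the authors' deposited tables, 1 of higher and 1 of lower positions, hold a p-value, a q-value, a difference score in percentage points (G5 minus G0), annotation flags, and the percent methylation of each pool. All q-values were under 0.01 and all absolute differences over 10 points, so positions that did not pass are not in the tables. A test on reads summed over pools would leave out the spread between pools.

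All 363 listed positions of chromosome 4 were on the C of a CpG or the base before it in GRCm38, the assembly of mm10. They were read as cytosines of both strands counted from 0, and a single position is printed with its number in the files. Printed windows count from 1. Sequences are from the RefSeq copy of GRCm38, and genes around each position from GENCODE M21. Gene names are the authors' nearest start site.

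Levels were averaged over positions within a pool, then over pools. No test was run on the difference between groups, since the members were chosen on it. The members, lists and level classes were chosen with earlier results of these data known. One of the gene lists is not reported here. All 9 genes are named, and genes of the region outside them only where stepped with a large gain, except where said otherwise. The alternatives were other level classes, gain limits and averages, a stricter q-value, and leaving out each pool. No statistic with a p-value was computed, so no simulation was needed. Python 3.11.15, numpy 2.4.6, pandas 2.3.3 and matplotlib 3.10.9 were used.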

Additional observations from a re-analysis of the deposited data

How the results depend on the processing

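The mean difference over the 26 positions was 30.3 points, 41.5 points at a q-value under 0.001, which leaves 18 positions, and 28.6 to 33.5 points with a pool left out. Leaving out a pool gave 71.4 to 89.3 points over the large gains, 14.5 to 16.6 over the other higher positions and -27.9 to -21.6 over the lower ones. The 10 large gains stayed 10 in count with a limit of 30 points, with the difference of group means and without any single pool, and 7 to 8 positions were stepped without a pool. Positions without overlap of the groups numbered 25, or 25 to 26 with a pool left out and 16 when a gap of at least 10 points was required. With at most 5% in G0 pools 1 and 3 and at least 90% in G5, the pattern count was 7 in place of 8. Medians over positions gave 25.8 points for the higher Vamp3 positions and 16.7 for BC039966, against means of 31.1 and 27.3. No difference changed sign under any of these alternatives. No paired analysis was possible because the labels pair no G5 pool with a G0 pool. The means over large gains and over the other positions, and the limits for G0 pools 1 and 3, were added after seeing the data. Groups of 3 and 2 pools were too small for an outlier test, and coverage per position is unknown.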
